A study of Mus musculus with 6 samples.

Results

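The 34 genes described here encode mouse tRNA methyltransferases, their partner proteins and other enzymes of the same tRNA modification pathways. They were chosen by gene symbol, and all 34 were found once each among the 55450 genes counted. The data are 3 brain libraries labelled TRMT1L KO and 3 labelled wild type (WT), and the comparison asks whether loss of Trmt1l, which encodes a relative of the tRNA guanosine methyltransferase TRMT1, is accompanied by a change in the other tRNA methylation genes. RNA longer than 200 bases was taken from whole brain and sequenced with a total RNA kit. The targeting allele, strain, age and sex of the animals are not given in the sources used here, and the groups differ by genotype alone as far as the labels go. The replicates are described as biological, without naming separate animals, so p-values measure the spread between these libraries.

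Transfer RNAs carry methyl groups on bases and riboses throughout the molecule, and most methyltransferases take the group from S-adenosylmethionine. Methyl groups in the anticodon loop affect decoding, while those in the D arm, variable loop and T arm mainly affect folding and stability. Mitochondrial tRNAs are transcribed in the organelle and are modified by nuclear-encoded enzymes imported there, some of them paralogs of the cytosolic enzymes. Several of these genes are known from inherited intellectual disability, which makes brain a tissue of interest for the family. Of the 34 genes, 24 were placed with the cytosolic and nuclear enzymes, 6 with the mitochondrial ones (Trmt2b, Trmt61b, Trmt10c, Hsd17b10, Mettl8 and Nsun3) and 4 with enzymes that act in both compartments (Trmt1, Trmt5, Nsun2 and Alkbh1).

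The promoters of these genes were read from RefSeq for GRCm38.p6, as windows from 250 bases before to 50 bases after an annotated start, of which the most 5′ was used where a gene has several. A window was found for 30 of the 34 genes. Median GC content was 59.5% for the 30 windows and 57% for 16522 windows of protein-coding genes, and the median ratio of observed to expected CpG was 0.796 against 0.599. None of the 30 windows held the letters TATAAA on either strand, which 12.8% of the protein-coding windows held. The letters CCGGAAGT, the core bound by ETS-family factors such as GABPA, stood in 6 of 30 windows (20%) and in 5.51% of protein-coding windows. Among windows with a CpG ratio above 0.6, the shares were 5 of 25 (20%) and 9.23%. These matches describe the letters and show no binding. The 6 stretches are shown because the core was found in a larger share of these windows than of all protein-coding windows. Each is 30 bases of GRCm38.p6, written 5′ to 3′ in the direction of the gene, with the core on either strand in capitals.
Mettl6, chr14:31495049-31495078, minus strand: aaggccgctgcACTTCCGGcattggggagg
Nsun2, chr13:69612013-69612042, plus strand: tcgggatgcagCCGGAAGTgcagcgtgcgt
Nsun3, chr16:62786743-62786772, minus strand: cctcgcaggacCCGGAAGTatggcgtttct
Trmt10b, chr4:45297128-45297157, plus strand: ctgatcaggaaCCGGAAGTggctttggggc
Trmt10c, chr16:56037781-56037810, minus strand: ggtggtgccggACTTCCGGcggccgcggcg
Trmt61a, chr12:111678092-111678121, plus strand: atcaaaaagcaCCGGAAGTgctacggccgc

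The first base of the core lay within 45 bases before to 8 bases after the annotated start in all 6. The set holds cytosolic (Mettl6, Trmt10b, Trmt61a) and mitochondrial (Nsun3, Trmt10c) enzymes, and Nsun2. The letters AAGATGGC, a core of the YY1 motif, stood in 2 of 30 windows (6.67%), those of Alkbh1 and Hsd17b10, and in 3.26% of protein-coding windows. The letters CCAAT stood in 12 of 30 (40%) against 38.8%. These 4 motifs were searched on both strands.

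Libraries held between 31201119 and 36145961 counts in genes, all 34 genes passed the filter on low counts, and the counts of a single gene in a single library ran from 109 to 6279. The defining markers of neurons, astrocytes, oligodendrocytes, microglia, endothelium, choroid plexus, blood and meninges were above 0 in every library. In whole brain, fewer cells of a type and less RNA per cell cannot be told apart. Summed marker levels were 3830 to 3994 CPM (counts scaled to library size) in WT and 3729 to 3917 in KO for neurons, and 3308 to 3712 against 2812 to 3376 for oligodendrocytes. They were 559 to 600.3 against 567.9 to 656.7 for astrocytes, 131.9 to 163.1 against 126.2 to 148.5 for microglia, 121.1 to 134.3 against 120.7 to 139.9 for endothelium, 106.6 to 146.6 against 96.5 to 243 for blood and 39.4 to 43.2 against 31.6 to 41.2 for meninges. Choroid plexus markers summed to 297.7 to 349.5 CPM in WT and 354.1 to 425.4 in KO, without overlap. The part of these differences in the values below was not tested.

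All 34 genes were expressed in brain, at levels spread around that of a middling protein-coding gene. Levels of different genes are compared per transcript length, as TPM, in which counts are divided by the exon length in GENCODE M21 and scaled to the same total in each library. The median WT level was 12.9 TPM, against 13.4 TPM for the 18427 protein-coding genes above 0 in WT, and 16 of the 34 lay above that value. The median was 11.9 TPM for the cytosolic group (9 of 24 above the protein-coding median), 11.8 TPM for the mitochondrial group (3 of 6) and 23.1 TPM for the enzymes of both compartments (4 of 4). With the length of the longest transcript in place of all exons, the median level was 14.6 TPM.

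The most abundant transcript was Wdr6, which encodes the partner of the ribose methyltransferase FTSJ1 at the wobble position. It stood at 158, 150 and 146 TPM in WT libraries 1 to 3, higher than 96.1% of protein-coding genes, and made up 23.3% of the summed TPM of the 34 genes. Nsun2, which methylates cytosines of many tRNAs, followed at 47.4, 48.7 and 45.1 TPM. Hsd17b10, a mitochondrial dehydrogenase that also serves as a scaffold for TRMT10C in the RNase P of mitochondria, stood at 36.1, 35.5 and 37.5 TPM. With all exons as length, each of these was above the next gene in the order in all 3 WT libraries. Alkbh8 (28.8 TPM), which completes methylated side chains on wobble uridines, Trmt112 (28.2 TPM), the small activator of several methyltransferases, and Trmt1 (27.8 TPM) came next, with WT libraries that overlapped each other. Trmt1 lay above the gene after it, Trmt6 (19.5 TPM), in all 3 WT libraries.

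At the low end stood Trmt10a, one of the guanosine methyltransferases acting near the acceptor stem, at 2.35, 3.03 and 2.78 TPM. In CPM, the counts scaled to library size, Trmt10a stood at 4.84, 6.06 and 5.86 in WT and 5.84, 4.25 and 5.59 in KO, with overlap. Trmo, which methylates a threonylcarbamoyl-adenosine beside the anticodon, stood at 5.72, 6.77 and 5.52 TPM, above Trmt10a in every WT library. Its CPM values of 3.35, 3.86 and 3.31 in WT and 3.45, 3.98 and 3.24 in KO overlapped. Mettl1, the catalytic subunit that methylates guanosine in the variable loop, stood at 7.84, 8.57 and 6.45 TPM and overlapped its neighbours. From Tarbp1 at 13.2 TPM down to Mettl1, the range of each gene over the 3 WT libraries overlapped that of the next gene. The order of some genes depends on the length used. Trmt11 was at rank 22 with all exons and at rank 8 with the longest transcript, and Trmt5 moved from rank 8 to rank 16. Trmt1 moved from rank 6 to rank 3, above Hsd17b10, which moved to rank 4. Mettl1 moved from rank 32 to rank 25. The 2 highest and 2 lowest genes kept their ranks under both lengths.

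**Figure D1:**
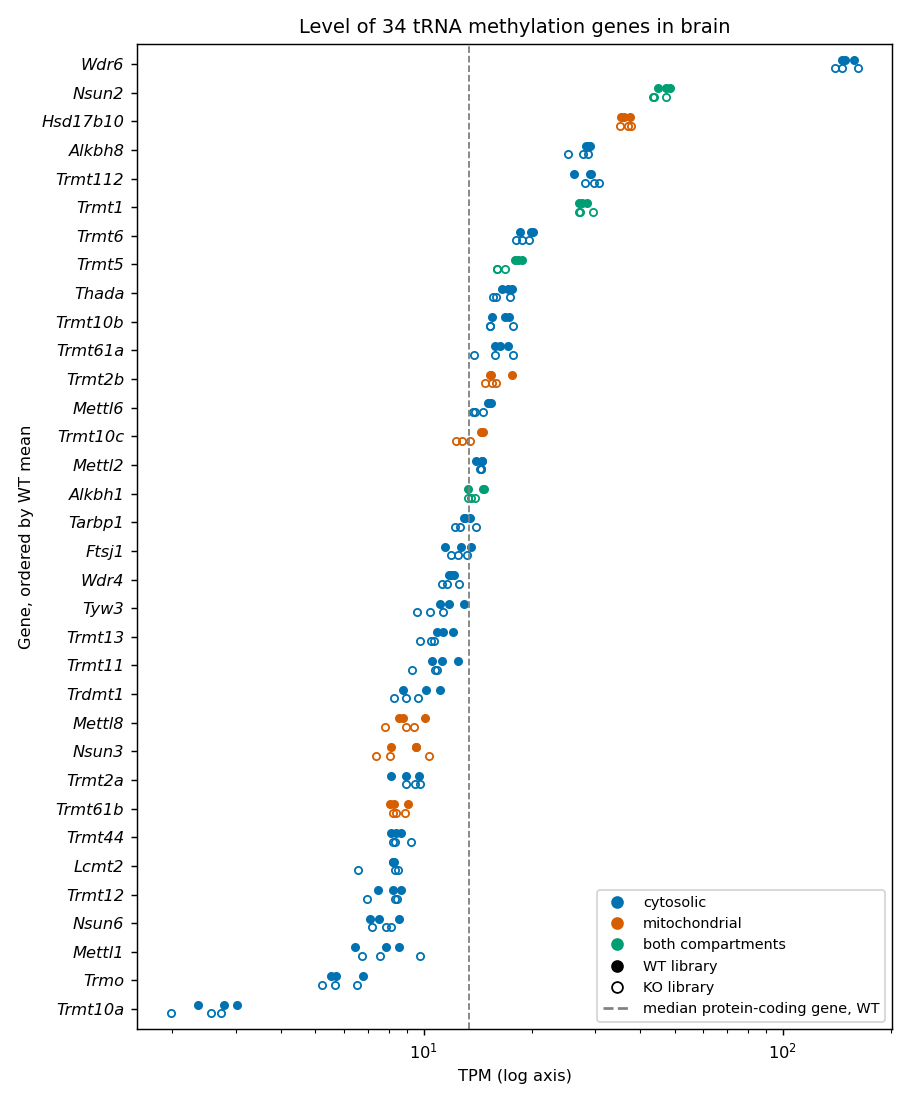
Level in TPM (log axis) of each of the 34 genes in the 3 WT (filled) and 3 KO (open) libraries, ordered by the WT mean and coloured by compartment. The dashed line is the median protein-coding gene at 13.4 TPM; Wdr6 stands apart at the top and Trmt10a at 2.72 TPM at the bottom.

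The summed TPM of the 34 genes was 655.5, 659.6 and 630.4 for WT and 642.7, 616.2 and 631.6 for KO. The mean sum was 648.5 in WT and 630.2 in KO. Single genes were compared between KO and WT on counts scaled with TMM factors, given as CPM, by the quasi-likelihood test of edgeR, with p-values adjusted after Benjamini and Hochberg over all 21237 genes tested. TPM does not use the TMM factors, and the 2 scales can differ between genotypes. Nsun2 averaged 69.5 CPM in both WT and KO, but 47.0 TPM in WT and 44.9 TPM in KO.

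The targeted gene Trmt1l (ENSMUSG00000053286.11, GRCm38 chromosome 1, 151428542 to 151458161, plus strand) was read at 35.1, 33.0 and 35.2 CPM in WT and at 2.68, 3.0 and 2.93 CPM in KO. Every library therefore lay on the side its label gives, with 8.33% of the WT level left in KO (log2 fold change -3.58, edgeR adjusted p = 6.95e-10). Its paralog Trmt1 (ENSMUSG00000001909.16, chromosome 8, 84686307 to 84699808, plus strand) encodes the enzyme that dimethylates a guanosine between the D arm and the anticodon stem. Trmt1 stood at 45.0, 45.1 and 45.2 CPM in WT and at 46.0, 50.2 and 46.6 CPM in KO. In CPM the KO libraries lay above the WT libraries, by 0.08 on the log2 scale (SE 0.0537, edgeR adjusted p = 0.749). In TPM the groups overlapped, at 27.7, 28.5 and 27.1 in WT and 27.2, 29.7 and 27.0 in KO. The 95% interval of that fold change ran from 0.973 to 1.15. In CPM the mean of Trmt1 was 2.50 higher in KO, beside a loss of 31.6 for Trmt1l (a mean difference of -31.6), 2 differences of levels that also depend on gene length. In TPM, which is scaled by length, the mean differences were 0.233 for Trmt1 and -14.98 for Trmt1l. Without KO replicate 2 the log2 fold change of Trmt1 was 0.037.

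**Figure D2:**
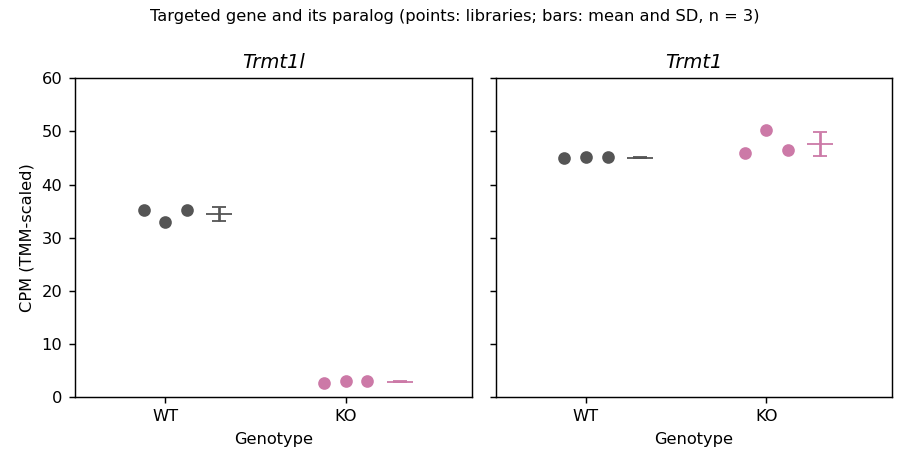
CPM of Trmt1l and of its paralog Trmt1 in each library (points), with the mean and SD of 3 libraries beside them. Trmt1l fell from 34.4 CPM in WT to 2.87 in KO, while Trmt1 lies at 45.1 ± 0.0997 CPM in WT and 47.6 ± 2.31 in KO (SD, n = 3).

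No tRNA methylation gene changed in KO brain past the threshold. Of the 34 genes, 0 were called by edgeR at an adjusted p of 0.05, where 0.00942% of all genes were called, and 0 were called by limma-voom, with 0.00942% of all genes. The DESeq2 Wald test called 0 of the 34, gave no adjusted p for 22 of them, and called 0.281% of the 8885 genes it gave one. The unadjusted p-value was under 0.05 for 0 of the 34, where 4.54% of all genes tested passed that limit with a higher and 3.38% with a lower level in KO. With total counts in place of TMM factors these shares of all genes were 3.80% higher and 4.13% lower. The smallest unadjusted p-value was 0.106, for Trmt2a. In sign, 19 genes stood above and 15 below 0, or 55.9% above, against 50.1% over all genes. The median log2 fold change was 0.012 for the 34 genes and 0.00013 over all genes tested. The fold changes of all 34 genes were under 0.25 in absolute log2 size, as were those of 85.7% of all genes.

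How large a change these data leave possible was read from the 95% intervals. For 27 of the 34 genes the upper bound was under 1.2-fold, for 32 the lower bound was above 0.8-fold, and for 25 the whole interval lay between these limits. The highest upper bound was 1.39-fold, for Mettl1, and the lowest lower bound was 0.754-fold, for Trmt10a, both among the least abundant genes. The tightest estimate was that of Nsun2, with a standard error of 0.0498 and 70.1, 70.1 and 68.3 CPM in WT against 72.7, 66.9 and 68.9 CPM in KO. The KO libraries of Nsun2 lay on both sides of the WT libraries.

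In CPM, every KO library lay above every WT library for 2 genes (5.88%, against 7.46% of all genes tested) and below for 2 genes (5.88% against 6.97%). The shares were thus near those of all genes. The genes above were Trmt1 and Mettl2, which methylates cytosine in the anticodon loop and stood at 12.3, 12.4 and 13.1 CPM in WT and 13.1, 13.1 and 13.4 CPM in KO. Those below were Trmt10c, described with its complex, and Trmt13, a ribose methyltransferase of the acceptor stem. Trmt13 stood at 18.0, 18.6 and 17.6 CPM in WT against 17.6, 16.1 and 17.6 CPM in KO. The nearest libraries of the genotypes were almost level, at 13.067 (WT) and 13.101 CPM (KO) for Mettl2. For Trmt13 they were at 17.625 (WT) and 17.612 CPM (KO). Mettl2 and Trmt13 were singled out after their values were seen.

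**Figure D3:**
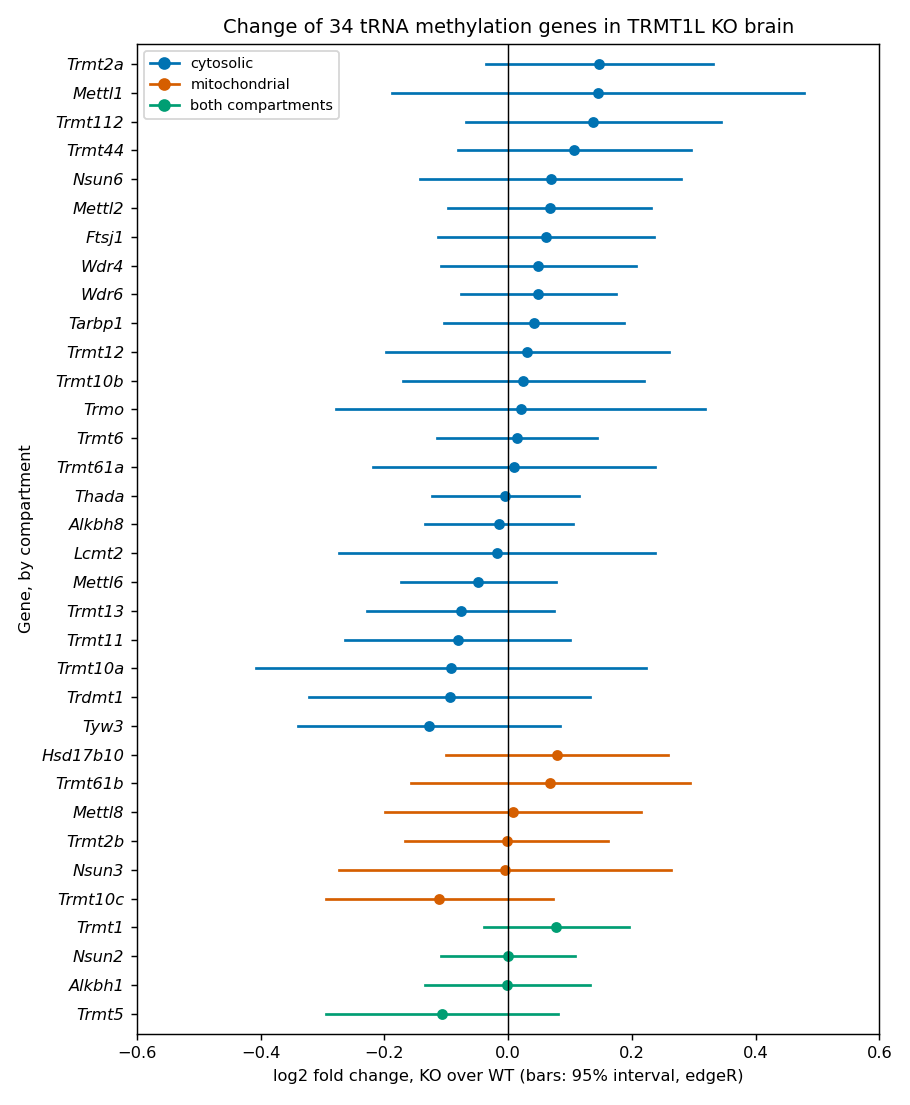
Log2 fold change of KO over WT for each of the 34 genes, with the 95% interval from edgeR, grouped and coloured by compartment. All 34 intervals include 0, and the widest is that of Mettl1.

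The cytosolic and mitochondrial groups were set side by side. The median log2 fold change was 0.022 for the 24 cytosolic genes, with 15 above and 9 below 0, and 0.0024 for the 6 mitochondrial genes, with 3 on each side. Among the 4 enzymes of both compartments, 1 stood above 0 and 3 below, with a median of -0.00095. Without 1 library the cytosolic median ran from 0.00115 (without WT replicate 3) to 0.0399 (without KO replicate 2). The mitochondrial median became the higher of both without WT replicate 1 (0.0539 against 0.0204), KO replicate 1 (0.0206 against 0.0145) or KO replicate 2 (0.0614 against 0.0399). The medians of the cytosolic genes, as log2 deviations from each gene's mean over the 6 libraries, were -0.0091, -0.0078 and -0.015 in WT and -0.0088, -0.0039 and 0.056 in KO, so KO library 3 stood highest and KO library 1 lay within the WT range. Those of the mitochondrial genes were 0.060, -0.046 and -0.027 in WT and 0.0026, -0.013 and 0.072 in KO. The genotypes overlapped for the mitochondrial group. KO library 3 held the highest CPM for 13 of the 34 genes, and each other library for 3 to 7. How often it was highest over all genes was not computed, so the 13 cannot be called particular to this family. KO library 3 also held the highest summed astrocyte and endothelial markers and the lowest summed oligodendrocyte and neuronal markers. The part of these markers in the 13 highest values was not tested.

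Of the 6 mitochondrial genes, 0 had an unadjusted p under 0.05, where 4.54% of all genes passed with a higher and 3.38% with a lower level. With so few genes a count of 0 says little about the group. Trmt10c, which methylates purines near the acceptor stem of mitochondrial tRNAs, stood at 11.2, 10.9 and 11.6 CPM in WT and 9.87, 10.8 and 10.5 CPM in KO. Its log2 fold change was -0.11, with SE 0.0836 and an edgeR adjusted p of 0.770. Its partner Hsd17b10 stood at 12.1, 11.5 and 12.9 CPM in WT and 12.9, 12.2 and 13.4 CPM in KO, so the groups overlapped, at 0.079 on the log2 scale. Trmt61b, the adenosine methyltransferase of the T loop in mitochondria, stood at 6.76, 5.87 and 6.32 CPM in WT and 6.36, 6.89 and 6.64 CPM in KO, again with overlap. Trmt2b (uridine of the T loop), Mettl8 (cytosine of the anticodon loop) and Nsun3 (wobble cytosine of the methionine tRNA) had log2 fold changes of -0.0025, 0.0073 and -0.0056. Nsun3 stood at 15, 14.5 and 13.1 CPM in WT and 13.1, 12 and 17.3 CPM in KO, where KO library 3 was the highest of all 6, and without it the log2 fold change was -0.18. Alkbh1, the oxygenase that acts on the cytosine methylated by NSUN3, had a log2 fold change of -0.0014.

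Grouped by where in the tRNA they act, the 15 genes of the anticodon loop had a median log2 fold change of -0.0045, with 6 above and 9 below 0. The 10 genes of the acceptor stem and D arm had a median of 0.033 (6 above, 4 below), and the 9 of the variable loop and T arm one of 0.049 (7 above, 2 below). The unadjusted p-value was under 0.05 for 0 genes in each group, where 4.54% of all genes passed with a higher and 3.38% with a lower level. The groups are small, so a count of 0 says little about them. In the anticodon loop, the genes of the wybutosine pathway, which builds a bulky base in phenylalanine tRNA, had log2 fold changes of 0.031 (Trmt12), -0.018 (Lcmt2) and -0.13 (Tyw3). Trmt5, which methylates the guanosine that this pathway starts from, had -0.11. The cytosine methyltransferases of the loop were at 0.067 (Mettl2), -0.048 (Mettl6) and -0.095 (Trdmt1), and Trmo and Alkbh8 at 0.020 and -0.014. In the acceptor stem and D arm, the log2 fold changes were -0.092 (Trmt10a), 0.025 (Trmt10b), -0.077 (Trmt13), 0.069 (Nsun6) and 0.042 (Tarbp1, a ribose methyltransferase of the D loop). In the variable loop and T arm, Trmt2a (uridine of the T loop) had 0.15 and Trmt44 (a ribose methyltransferase of uridine) 0.11. Trmt2a stood at 12.3, 13.0 and 11.4 CPM in WT and 12.8, 13.5 and 14.2 CPM in KO, so that KO library 1 lay among the WT libraries.

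Many of these enzymes work as pairs of proteins, so the transcripts of partners were compared within each library as ratios of TPM. With 3 against 3 libraries the exact permutation test cannot go below p = 0.1, so no ratio could pass 0.05. In the adenosine methyltransferase of the T loop, the catalytic subunit Trmt61a stood at 10.2, 10.5 and 10.2 CPM in WT and 10.3, 9.0 and 11.8 CPM in KO. Its partner Trmt6, which takes part in binding the tRNA, stood at 27.6, 27.2 and 26.4 CPM in WT and 28.3, 26.2 and 27.6 CPM in KO. Neither gene separated the genotypes. The ratio of Trmt6 to Trmt61a per length was 1.19 ± 0.0265 in WT and 1.21 ± 0.131 in KO (SD, n = 3; two-sided exact permutation test, p = 0.9).

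The guanosine methyltransferase of the variable loop joins METTL1 to WDR4, a scaffold that holds the tRNA. Mettl1 stood at 5.88, 6.25 and 4.95 CPM in WT and 5.24, 5.88 and 7.75 CPM in KO. Only KO library 3 lay above the WT range, and without it the log2 fold change turned from 0.14 to -0.035. Wdr4 stood at 16.7, 16.6 and 16.9 CPM in WT and 16.4, 16.9 and 18.6 CPM in KO, where the same library was highest. The ratio of Mettl1 to Wdr4 was 0.637 ± 0.0805 in WT and 0.676 ± 0.0936 in KO (SD, n = 3; exact permutation test, p = 0.6).

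TRMT11 methylates a guanosine of the D arm and needs TRMT112 as activator. Trmt11 stood at 15.4, 16.6 and 14.8 CPM in WT and 15.5, 15.3 and 13.4 CPM in KO, and Trmt112 at 8.33, 9.0 and 9.54 CPM in WT and 9.30, 9.86 and 10.4 CPM in KO. The groups overlapped for both genes. The ratio of Trmt11 to Trmt112 was 0.406 ± 0.0398 in WT and 0.349 ± 0.0437 in KO (SD, n = 3; exact permutation test, p = 0.3). With the longest transcript as length the WT ratio was 0.728, so Trmt112 stayed the more abundant partner.

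FTSJ1 methylates riboses of the anticodon loop together with THADA at one position and with WDR6 at the wobble position. Ftsj1 stood at 16.6, 15.2 and 14.5 CPM in WT and 15.2, 16.9 and 16.2 CPM in KO. Thada stood at 50.8, 50.7 and 50.3 CPM in WT and 49.0, 53.5 and 48.9 CPM in KO, and Wdr6 at 169, 156 and 160 CPM in WT and 181, 156 and 166 CPM in KO. None of the 3 separated the genotypes. Per length, Thada was 1.36 ± 0.0874 times Ftsj1 in WT and 1.30 ± 0.0469 times in KO (SD, n = 3; exact permutation test, p = 0.4). Wdr6 was 12 ± 0.564 times Ftsj1 in WT and 11.9 ± 1.56 times in KO (SD, n = 3; exact permutation test, p = 0.9).

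The ratio of Trmt10c to Hsd17b10 was the one, of 8 computed, in which the genotypes did not overlap. It was 0.402, 0.407 and 0.390 in WT and 0.332, 0.383 and 0.338 in KO. By exact permutation p was 0.1, the lowest possible with 3 against 3 libraries, and 0.8 after Benjamini-Hochberg adjustment over the 8 ratios. Mitochondrial paralogs were also set against cytosolic ones. Trmt61b to Trmt61a was 0.516 ± 0.0424 in WT and 0.546 ± 0.0873 in KO (SD, n = 3; exact permutation test, p = 0.7), and Trmt10c to Trmt10a was 5.40 ± 0.714 in WT and 5.42 ± 1.2 in KO (SD, n = 3; exact permutation test, p = 1). With the longest transcript as length the WT ratio of Trmt10c to Trmt10a was 2.85.

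**Figure D4:**
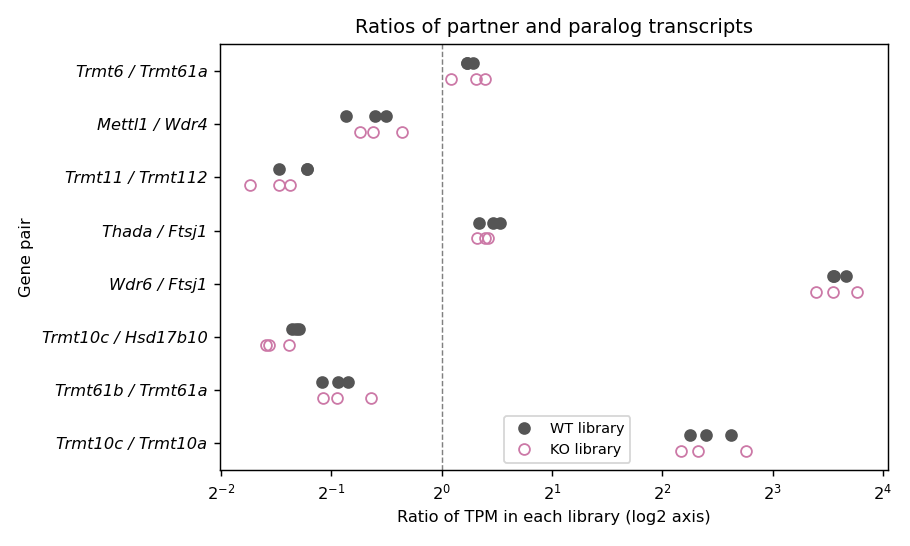
Ratio of the TPM of partner or paralog genes in each library, on a log2 axis, for WT (filled) and KO (open). The groups overlap for 7 of the 8 ratios; for Trmt10c over Hsd17b10 the KO values (0.332 to 0.383) lie below the WT values (0.390 to 0.407).

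Genes around the family were taken from lists of the wider pathway. Of 34 such genes, 24 had a log2 fold change above 0 and 10 below, with a median of 0.049. Over all genes tested, 50.1% stood above 0, and the median was 0.00013. edgeR called 0 of them at an adjusted p of 0.05, where 0.00942% of all genes were called. An unadjusted p under 0.05 was found for 2, both higher in KO (5.88% of the lists, where 4.54% of all genes passed). Mettl17, which acts in the assembly of the small subunit of mitochondrial ribosomes, stood at 23.0, 22.6 and 21.8 CPM in WT and 25, 26.9 and 26.0 CPM in KO (log2 fold change 0.21, SE 0.0614, edgeR adjusted p = 0.576). Shmt2, the mitochondrial serine hydroxymethyltransferase that feeds one-carbon metabolism, stood at 16.4, 15.9 and 15.7 CPM in WT and 17.9, 18.3 and 19.1 CPM in KO (log2 fold change 0.20, SE 0.0667, edgeR adjusted p = 0.579). In CPM, every KO library lay above every WT library for 4 of the 34 genes (11.8%, against 7.46% of all genes tested). These were Mettl17, Shmt2, Bud23 and Mat2a. For 1 gene, Ahcyl2, every KO library lay below (2.94% against 6.97%). In TPM the genotypes overlapped for Bud23 (17.0 to 17.5 in WT, 17.1 to 19.3 in KO) and Mat2a (46.2 to 47.9 in WT, 45.2 to 53.5 in KO). Nsun4 and Ahcyl1 were lower in every KO library in TPM, as was Ahcyl2. Bud23, Mat2a, Ahcyl2, Nsun4 and Ahcyl1 were named after their values were seen.

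By list, the median log2 fold change was -0.040 for 5 methyltransferases that TRMT112 activates or is thought to activate, such as Bud23, and 0.056 for 8 methyltransferases of cytosolic and nucleolar rRNA, such as the fibrillarin gene Fbl. It was 0.11 for 7 methyltransferases and related proteins of mitochondrial rRNA and 0.066 for 9 genes of S-adenosylmethionine supply and recycling, among them Mat2a, which makes the methyl donor. It was 0.050 for 3 RNA demethylases and -0.067 for the 2 processing genes 1110008L16Rik and Elac2. Beyond Mettl17 and Shmt2, 0 genes of these lists had an unadjusted p under 0.05.

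The counts used are from the strand of each gene, and no exon of the 34 genes overlaps an exon of another gene on the same strand. On the opposite strand, 15 of the 34 share exon sequence with another gene. The opposite strand held over 10% of both strands' counts for 6 genes: Trmt112 (24.3%), Tarbp1 (23.4%), Trmt10b (19.5%), Trmt61b (13.3%), Trmt13 (13.3%) and Lcmt2 (12.3%). For 5 of them a protein-coding gene overlaps on that strand, such as Prdx5 over 409 exon bases of Trmt112 and Spdya over 402 of Trmt61b, which GENCODE M21 lists with the antisense type. No annotated gene overlaps Trmt10b. Its opposite-strand counts were 105, 72 and 99 in WT and 98, 110 and 81 in KO, and did not part the genotypes. In the fit of all opposite-strand counts, where 0.0278% of genes were called, 13 of the 34 genes had enough counts. Of these 13, edgeR called 0 at an adjusted p of 0.05, and 1, Trmt112, had an unadjusted p under 0.05 (105, 75 and 83 counts in WT, 128, 113 and 115 in KO, edgeR adjusted p = 0.799), where 5.75% of all genes passed that limit.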

How the data were processed

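The authors deposited whole-number read counts per gene, not normalized, in STAR's layout with an unstranded and 2 stranded columns. STAR 2.7.0f and cutadapt 1.9.1 are named in the submitters' processing notes. The build is not given in the sources used here, but the 55450 gene IDs are those of GENCODE M21 (GRCm38), which gave names, positions and lengths. The stranded column with 94.6% to 94.8% of stranded counts was used. STAR leaves out reads in several genes or places.

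In R 4.3.3, edgeR 4.0.16 (filterByExpr, TMM, quasi-likelihood test, genotype as the sole factor) was fitted to all 6 libraries and all genes. SE is the log2 fold change over the square root of F. TPM used the union of exons. Alternatives were the unstranded column, other scalings and filters, DESeq2 1.42.0, limma-voom 3.58.1, a replicate block and leaving out libraries. Replicates differed by more than sampling noise (chi-square per degree of freedom 4.08 to 8.69).

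Every member is accounted for. Values by library were given for Trmt1l, Trmt1, the 3 highest and 3 lowest by WT TPM, the subunits in ratios and any with an unadjusted p under 0.05. Those of Trmt2a, Nsun3, Mettl2 and Trmt13, the TPM ranges of Trmt5 and Mettl6, and the opposite-strand counts of Trmt10b and Trmt112 were added after their values were seen. Members, lists and tests were chosen with earlier results of these data known, and the promoter motifs and tRNA regions after the files were seen.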

Additional observations from a re-analysis of the deposited data

How the results depend on the processing

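The count of genes past the threshold was 0 of 34, and that at an unadjusted p under 0.05 was 0, under every alternative run. Adjusted p-values over these alternatives were at least 0.617. At an unadjusted p under 0.05, 3.35% to 4.86% of all genes passed with a higher level in KO under the alternatives. With a lower level, 2.04% to 4.13% passed. Over all genes, 2 (0.00942%) were called in the edgeR test as reported, 298 (0.8%) without a filter, 25 by the DESeq2 Wald test (0.281% of genes given an adjusted p), 4 (0.0188%) with the replicate block, 3 (0.0139%) without KO replicate 1, 5 (0.0232%) without KO replicate 3 and 2 under each other alternative. Trmt1l lay between -3.62 and -3.46 (log2) and stayed past the threshold wherever an adjusted p was given. With the replicate block the log2 fold change of Trmt1 was 0.0767, and 0 of 34 genes were called. Libraries sharing a number across genotypes had deviations from their group means that correlated over genes at 0.0402, -0.0314 and -0.0581, so the numbers show no pairing. The median level of the 34 genes was 12.9 TPM, 14.6 with the longest transcript, 13.1 with the unstranded column and 12.8 to 13.2 without 1 WT library. Leaving out single libraries, the median log2 fold change ran from -0.00205 to 0.0361 for the 34 genes, from 0.00115 to 0.0399 for the cytosolic ones and from -0.023 to 0.0614 for the mitochondrial ones.

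Of 454 values of the 34 genes under alternatives, 404 kept their sign and 50, in 18 genes, took the opposite one, with 0 past the threshold. With the unstranded column these were Trmt2b (0.00199), Mettl8 (-0.0177), Nsun2 (0.00343) and Alkbh1 (0.000622). With total counts they were Trmt61a (-0.00015) and Mettl8 (-0.0021). Without a filter they were Thada (0.000919), Trmt2b (0.00287), Nsun3 (0.000341), Nsun2 (0.00517) and Alkbh1 (0.00411), and with the replicate block Trmt2b (0.000833). The cause was not tested. Leaving out 1 library gave ranges of -0.0105 to 0.0447 (Trmt6), -0.0932 to 0.099 (Trmt61a), -0.188 to 0.0351 (Trmt10a), -0.0448 to 0.0635 (Trmt10b), -0.029 to 0.117 (Trmt12), -0.0675 to 0.0933 (Trmo), -0.0923 to 0.0917 (Lcmt2), -0.0494 to 0.0185 (Thada), -0.0106 to 0.0974 (Wdr6), -0.0346 to 0.26 (Mettl1), -0.0064 to 0.0845 (Wdr4), -0.0484 to 0.031 (Alkbh8), -0.0133 to 0.0716 (Tarbp1), -0.0507 to 0.0701 (Trmt2b), -0.0619 to 0.0836 (Mettl8), -0.176 to 0.0968 (Nsun3), -0.0349 to 0.0253 (Nsun2) and -0.0278 to 0.0201 (Alkbh1). The sign held in the other 16 genes, of which 12 moved by over 1.5 times, with ranges of -0.118 to -0.0187 (Trmt11), 0.0876 to 0.187 (Trmt112), -0.0988 to -0.0365 (Trmt13), 0.0425 to 0.141 (Trmt44), 0.0175 to 0.119 (Ftsj1), -0.073 to -0.0274 (Mettl6), 0.0111 to 0.127 (Nsun6), -0.163 to -0.0354 (Trdmt1), -0.2 to -0.0458 (Tyw3), 0.0196 to 0.122 (Trmt61b), 0.0444 to 0.121 (Hsd17b10) and 0.037 to 0.101 (Trmt1). Trmo had the fewest counts, 109 to 134 in a library, and a standard error of 0.136, and Mettl1 the widest standard error, 0.152, with 163 to 280 counts.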
